A study of Homo sapiens with 8 samples.

Results

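The genes described here encode the proteasome, the protease that degrades proteins tagged with ubiquitin. They were chosen by name, as protein-coding genes whose symbol is PSM followed by a letter from A to G and a digit. The rule found 50 genes in the annotation, 49 of which were matched among the 63568 genes of the count table, 19488 of them protein-coding. PSMB3, a core subunit, was not matched and was not analysed here. The symbols PSMC3IP and PSME3IP1 also meet the rule, but they name a meiotic recombination factor and a partner of PSME3, so 47 of the 49 genes encode subunits, regulators or assembly factors.

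RNA methylation and expression had been measured by MeRIP-seq, in which fragmented RNA is precipitated with an antibody against N6-methyladenosine (m6A) and a portion of the same RNA is kept as input. The cells were MIAPaCa-2, an established line from a human pancreatic carcinoma, and carried either a control short hairpin RNA (control) or one against METTL3, the m6A methyltransferase (METTL3-KD). No age or added agent is given in the labels, and the hairpin line was a gift, with no statement of whether it is clonal. Each condition had 1 m6A library and 1 input library, each run on 2 sequencer lanes, so lanes were summed and counted as 1 sample and nothing below has a replicate of the condition.

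The proteasome consists of a barrel-shaped 20S core and of regulators that bind its ends. The outer rings of the core are built of alpha subunits, which gate the entrance, and the inner rings of beta subunits, of which PSMB5, PSMB6 and PSMB7 carry the active sites. The 19S regulator has a base, in which 6 ATPases of the PSMC group unfold substrates, and a lid, which removes ubiquitin. Activators of the PSME group bind the core in place of the 19S regulator, and the PSMG group with a few PSMD proteins assists assembly. Cancer cells synthesise much protein, and proteasome genes are commonly expressed together at a high level.

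In control cells, exonic m6A peaks were listed for 8 proteasome genes, and the sequences at the centres of the 5 exonic peaks supported by more than 1 fragment are given here because they are the best supported exonic methylation signals among these genes. Each line holds 25 bases of the transcript strand from the hg19 (GRCh37) genome. The 4 bases GGAC, the centre of the sequence context in which METTL3 methylates, are in capitals. For PSMD2, PSMD3 and PSME3IP1 the stretch is centred on the GGAC nearest the summit, and for PSMB6 and PSMB7 on the summit itself.
PSMB6, coding sequence, chr17:4701304-4701328, plus strand: gtgtactcagtgcctatggggggta
PSMB7, coding sequence, chr9:127119163-127119187, minus strand: aagccaagaatctggtgagcgaagc
PSMD2, coding sequence, chr3:184019787-184019811, plus strand: ttgagcaggtGGACatgctggagaa
PSMD3, coding sequence, chr17:38151425-38151449, plus strand: gcagctgtcaGGACaggaaacctag
PSME3IP1, 3′UTR, chr16:57188144-57188168, minus strand: agggtagatcGGACcgttcatgctg
The values of these peaks follow after the expression of the genes.

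The inputs differed in how finely they measured a gene. The control input held 3237968 counted reads and the METTL3-KD input 1833005, but the peak caller recorded 9291 distinct read positions in the control and 52141 in METTL3-KD. Reads per gene clustered at discrete values, the lower of which was 504 reads in the control and 17.8 reads in METTL3-KD. Reads divided by that value are called molecule equivalents here, 1 of which equalled 156 CPM (reads scaled by the total counted reads of the input) in the control and 9.71 in METTL3-KD. Intervals of log2 ratios are 95% exact Clopper-Pearson intervals on rounded molecule equivalents. Those of summed CPM and of levels per length are 95% exact Poisson intervals on the same rounded values. A count of 0 is bounded instead by a floor of 3 molecule equivalents, and intervals and floors cover counting error only. METTL3 itself had 0 reads in all 4 input lanes, so the knockdown could not be checked in these counts. The cells are labelled epithelial. Of 19 cell type markers 6 had at least 10 reads, and the direction differed among them. The keratin KRT8 had 10850 reads in the control and 1167 in METTL3-KD, with a log2 ratio (METTL3-KD over control, under the TMM scaling used below) of -1.02 (-1.76 to -0.28). KRT18 had 3535 and 1212 reads (0.65, -0.47 to 2.02) and KRT19 had 1 and 201. The mesenchymal gene VIM had 8978 and 5649 reads (1.52, 0.82 to 2.28), and the collagen gene COL1A2 had 1804 and 353 (-0.16, -1.89 to 1.70). By total counts, which lie lower by 1.37 on the log2 scale, the interval of VIM held 0 and that of KRT8 stayed below 0. The epithelial markers EPCAM and CDH1, the mesenchymal markers CDH2 and FN1 and the fibroblast markers COL1A1 and DCN had 0 reads in both. KRT7 had 1 control read and 0 in METTL3-KD. The blood, acinar and endocrine markers had 0 reads in both, apart from CD68 with 43 METTL3-KD reads.

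The inputs differed in how many genes they detected, with at least 1 read for 10463 genes in METTL3-KD and 2730 in the control, and proteasome genes shared this difference. At least 10 reads were counted for 44 of the 49 genes in the METTL3-KD input and for 8 in the control input, and a ninth gene, PSMA5, had 1 control read. Among all protein-coding genes with at least 10 METTL3-KD reads, 20.3% also had at least 10 control reads, beside 8 of 44 proteasome genes. PSMA8, PSMB8, PSMB9, PSMB11 and PSMD10 had 0 reads in both inputs. PSMA8 is the testis form of an alpha subunit, PSMB11 is the thymus form of a beta subunit, PSMB8 and PSMB9 are immunoproteasome subunits, and PSMD10 is an assembly chaperone of the base. A count of 0 allows up to 467 CPM in the control and 29.1 in METTL3-KD, at 3 molecule equivalents. The highest METTL3-KD level of any proteasome gene was 215 CPM. By total counts, none of the genes absent from the control therefore exceeded what that input could have missed. TMM scaling raises METTL3-KD relative to the control by 1.37 on the log2 scale, and this bound was not set under it. No fold is given for these genes. In these bulk samples less RNA per cell and fewer expressing cells cannot be told apart.

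**Figure D1:**
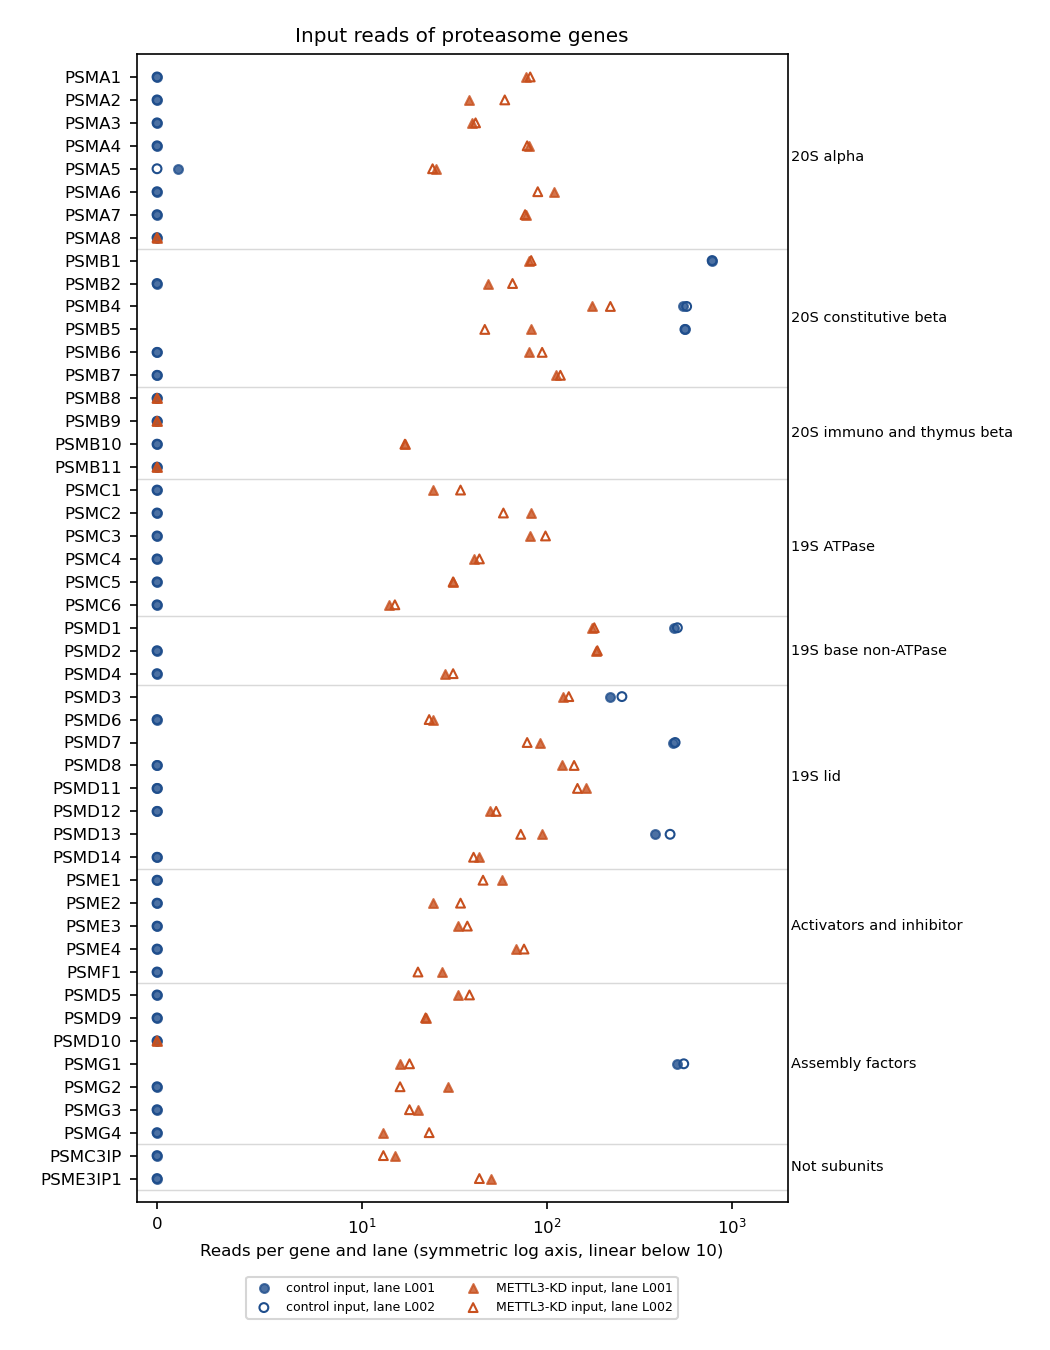
Reads of each proteasome gene in each lane of the control input (circles) and METTL3-KD input (triangles), on a symmetric log axis that is linear below 10, grouped by class. The 8 genes with control reads lie between 220 and 782 reads per lane, and 40 of the others sit at 0 in both control lanes.

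By the size rule used here, a log2 ratio (METTL3-KD over control) beyond 2, 36 of the 44 genes with at least 10 reads over both inputs were higher in METTL3-KD and 1 was lower. Over all 9931 such genes, 79.1% were higher and 7.37% were lower. Of the 36 higher genes, 35 had 0 control reads and the other was PSMA5. The median log2 ratio was 6.54 over proteasome genes and 5.60 over all genes, and both medians rest on genes with 0 control reads. With molecule equivalents in place of reads, 7 of the 44 genes were higher (PSMA6, PSMB6, PSMB7, PSMC3, PSMD2, PSMD8 and PSMD11) and 0 were lower, beside 7.83% of all genes higher and 0.201% lower, and the median over proteasome genes was 1.19 beside 0.71 over all genes. These 7 genes all had 0 control reads, so their ratios depend on the prior count and bound no difference.

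The 8 genes with at least 10 reads in each input had log2 ratios on both sides of 0 under TMM scaling and below 0 in all 8 by total counts. Their median log2 ratio under TMM scaling was -0.24, beside -0.61 over the 1871 genes of that kind, and 5 of the 8 lay above that median. None of the 8 had a log2 ratio above 2, beside 7.8% of the 1871 genes, and 1 of the 8 lay under -2, beside 21.3%. Under TMM scaling the intervals of all 8 genes held both 0 and the median of the 1871 genes. No difference between the inputs was thus detectable for a single gene at this depth under that scaling. By total counts, which lie lower by 1.37, the interval of PSMG1 lay below 0 and still held the median of the 1871 genes. With total counts in place of TMM scaling the medians were -1.61 for the 8 genes and -1.98 for the 1871, so the ratios hold relative to the scaling.

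**Figure D2:**
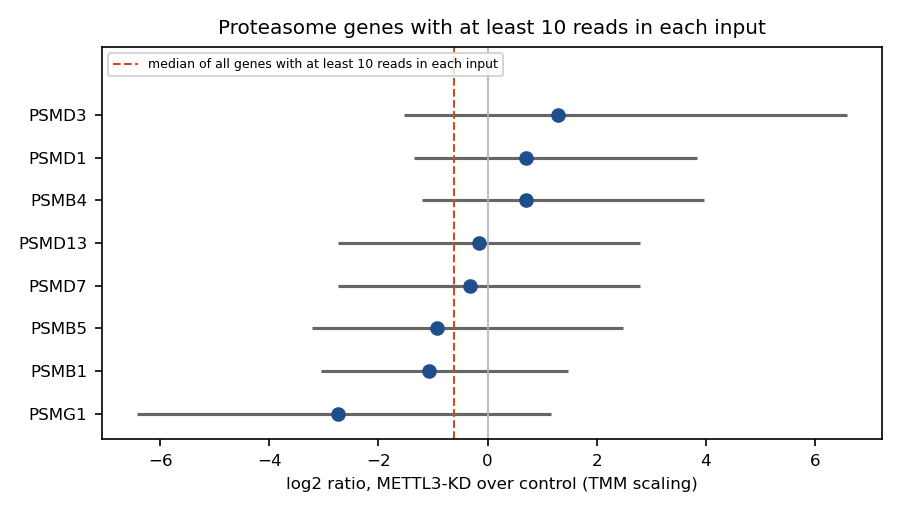
The log2 ratio of METTL3-KD over control input reads (points, TMM scaling) with its 95% counting interval (lines) for the 8 genes with at least 10 reads in each input. The dashed line marks the median of -0.61 over the 1871 genes of that kind, and every interval crosses both it and 0.

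In the core, control reads were found for 3 beta subunits. PSMB1, a beta subunit without an active site (ENSG00000008018.8, chr6:170844208-170862395), was counted 777 and 782 times in the lanes of the control input and 80 and 82 times in those of METTL3-KD. PSMB4, also without an active site (ENSG00000159377.6, chr1:151372036-151374413), was counted 545 and 569 times in the control and 175 and 220 times in METTL3-KD. PSMB5, the chymotrypsin-like subunit and the main target of bortezomib (ENSG00000100804.14, chr14:23485752-23504439), was counted 560 and 557 times in the control and 82 and 46 times in METTL3-KD. Of all 52 lane pairs tested, the METTL3-KD lanes of PSMB5 had the lowest exact binomial p, 0.053 after adjustment, and those of PSMB4 had an adjusted p of 0.46. The log2 ratio was -1.07 for PSMB1 (interval -3.05 to 1.48), 0.70 for PSMB4 (-1.20 to 3.96) and -0.93 for PSMB5 (-3.22 to 2.48). These rest on 3, 2 and 2 molecule equivalents in the control. The difference between PSMB4 and the other pair was not tested.

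The other active-site subunits had input reads in METTL3-KD and none in the control input, although both had a control m6A peak. PSMB6, the caspase-like subunit, was counted 80 and 94 times in the METTL3-KD lanes, and PSMB7, the trypsin-like subunit, 112 and 118 times, and both had 0 control reads. PSMB2, a beta subunit without an active site, had 48 and 65 METTL3-KD reads. Of the immunoproteasome subunits, which replace the constitutive active sites after interferon, PSMB10 had 17 reads in each METTL3-KD lane, about 1.91 molecule equivalents. It shares exons with another gene model on the same strand, ENSG00000261884, which had 28 METTL3-KD reads, so its low count is uncertain.

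No alpha subunit had more than 1 control read, whereas 7 of the 8 had METTL3-KD reads. PSMA6 had the most, with 109 and 89 reads, and PSMA5 the fewest, with 25 and 24. PSMA1 had 77 and 81 reads, PSMA4 80 and 78, and PSMA7 77 and 76. PSMA2 had 38 and 59 reads and PSMA3 had 39 and 41. The alpha genes thus held 0 molecule equivalents in the control and 50 in METTL3-KD.

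The 6 ATPases of the base likewise had 0 reads in both control lanes. In METTL3-KD the lane counts were 81 and 98 for PSMC3 and 82 and 58 for PSMC2. PSMC4 had 40 and 43 reads, PSMC5 had 31 in each lane, and PSMC1 had 24 and 34. PSMC6 was the lowest, with 14 and 15 reads, 1.63 molecule equivalents. The ring is built from 1 copy of each ATPase, yet their levels per length ranged 8.80-fold, from 7.21 for PSMC1 to 63.4 for PSMC3 in RPKM, the CPM divided by the transcript length in kilobases. The intervals of this pair were 1.37 to 19.4 and 30.3 to 116. The pair was chosen as the extremes, and the range depends on the canonical transcript of PSMC1, which is 4390 nt long beside 1540 nt for PSMC3. PSMC1 has a pseudogene with reads of its own, PSMC1P1, with 60 METTL3-KD reads beside the 58 of PSMC1, so reads may be divided between them.

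Among the scaffold subunits of the base, PSMD1 (ENSG00000173692.8, chr2:231921559-232037830) had control lane counts of 487 and 507 and METTL3-KD lane counts of 176 and 180, with a log2 ratio of 0.71 (-1.35 to 3.83). Its partner PSMD2 was counted 185 and 187 times in METTL3-KD and had 0 control reads. The METTL3-KD counts of the pair were thus alike, 356 and 372 reads, while the control held 2 molecule equivalents of the first and none of the second. PSMD4, a ubiquitin receptor, had 28 and 31 METTL3-KD reads and none in the control.

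In the lid, 3 of 8 genes had control reads. PSMD3 (ENSG00000108344.10, chr17:38137060-38154212) had control lane counts of 220 and 254 and METTL3-KD lane counts of 122 and 131, the largest log2 ratio of the 8 genes at 1.28 (-1.54 to 6.58), and its control reads were under 1 molecule equivalent (0.94). PSMD7 (ENSG00000103035.6, chr16:74330712-74340186) had control lane counts of 478 and 493 and METTL3-KD lane counts of 91 and 78, with a log2 ratio of -0.33 (-2.73 to 2.79). PSMD13 (ENSG00000185627.13, chr11:236966-252984) had control lane counts of 385 and 463 and METTL3-KD lane counts of 94 and 72, with a log2 ratio of -0.16 and the same interval. The PSMD7 value is uncertain, because an antisense gene that shares 842 nt of exon, ENSG00000259972, had nearly the same control lane counts, 477 and 493, and METTL3-KD lane counts of 61 and 52. The strand setting of the counting is not given in the sources used here. Of the lid genes without control reads, PSMD11 had the most METTL3-KD reads, 162 and 146, followed by PSMD8 with 121 and 140. PSMD14, the deubiquitinase of the lid, had 43 and 40, PSMD12 had 49 and 53, and PSMD6 had 24 and 23.

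The activators and the inhibitor PSMF1 had 0 control reads. PSME4, which encodes the large nuclear activator PA200, had 68 and 75 METTL3-KD reads. PSME1 and PSME2, the interferon-inducible partners in the PA28 ring, had 57 and 45 and 24 and 34 reads. PSME3, the nuclear PA28 form, had 33 and 37 reads, and PSMF1 had 27 and 20.

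Of the assembly factors, PSMG1 (ENSG00000183527.7, chr21:40546695-40555414), a chaperone of alpha-ring assembly, was the gene called lower. Its control lane counts were 506 and 549 and its METTL3-KD lane counts 16 and 18. Its log2 ratio under TMM scaling was -2.74, but the interval was -6.42 to 1.16, since the counts correspond to 2 molecule equivalents in each input. By total counts, which lie lower by 1.37, that interval lies below 0. PSMG2, its partner in a heterodimer, had 29 and 16 METTL3-KD reads and none in the control. PSMG3 had 20 and 18 reads and PSMG4 had 13 and 23. Among the base chaperones PSMD5 had 33 and 38 METTL3-KD reads and PSMD9 had 22 in each lane, and both had 0 control reads. The genes that share the naming pattern without being subunits, PSMC3IP and PSME3IP1, had 15 and 13 and 50 and 43 METTL3-KD reads and none in the control.

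The genes seen in the control had more METTL3-KD reads at the median, with wide overlap. The median was 168 METTL3-KD reads in the 8 genes with control reads, range 34 to 395, and 83 in the 36 other genes, range 28 to 372. PSMB4, PSMD2, PSMD1 and PSMD11 had METTL3-KD levels above the 156 CPM that 1 control molecule equivalent represents, and PSMB4 and PSMD1 of these had control reads. The other 40 genes lay below that value, so a control library at the same CPM would hold less than 1 molecule equivalent of each. PSMG1, with control reads and 34 METTL3-KD reads, stood at the low end of the genes seen in both.

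**Figure D3:**
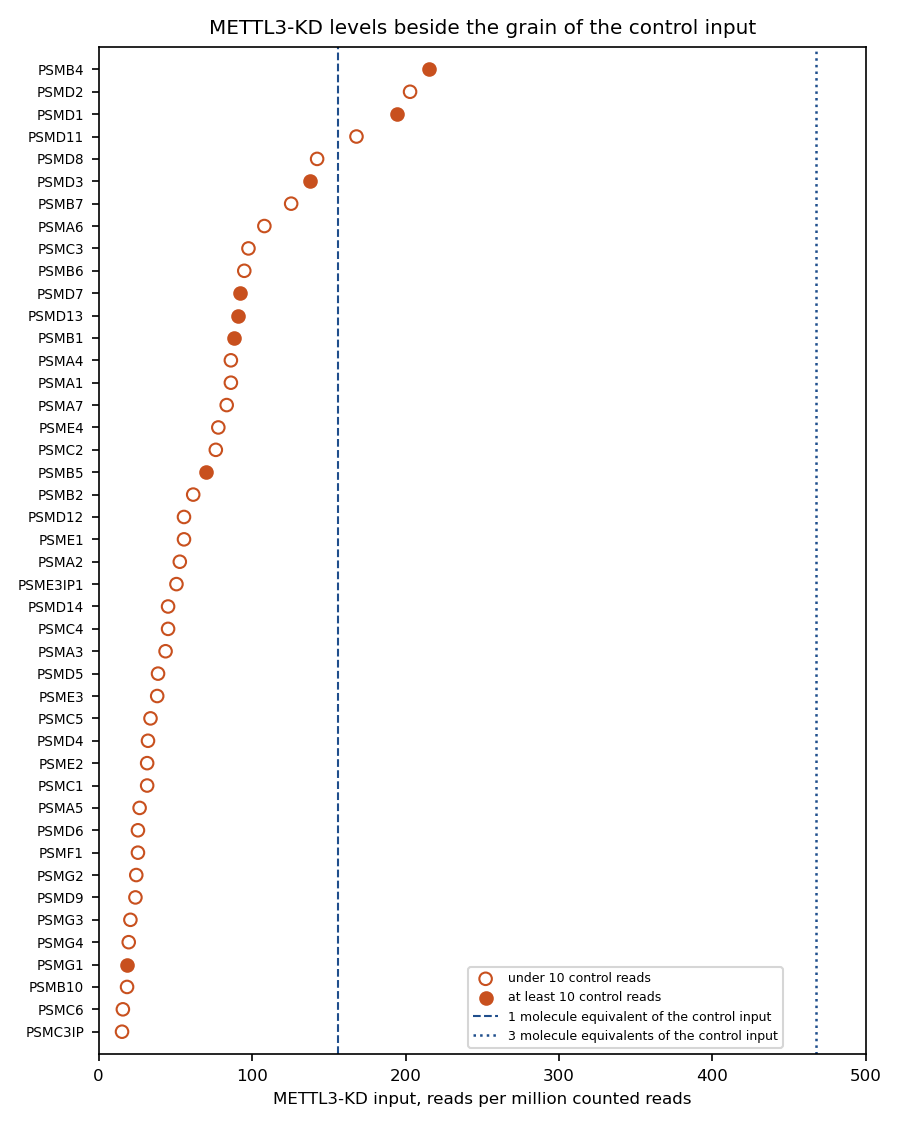
METTL3-KD input level of the 44 proteasome genes with reads, in CPM, filled where the control input had at least 10 reads. The dashed and dotted lines mark 1 and 3 molecule equivalents of the control input, 156 and 467 CPM. All genes lie left of the dotted line and 4 lie right of the dashed line.

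Summed over genes, the share of reads from the proteasome had overlapping intervals in the inputs. The 49 genes held 2512 CPM in the control (interval 1425 to 4048, 16 molecule equivalents) and 3091 in METTL3-KD (2759 to 3448, 318 molecule equivalents). The pooled log2 ratio was 0.30 (-0.41 to 1.13) by total counts. Under TMM scaling, which shifts every ratio by 1.37, it was 1.67 (0.96 to 2.51), so whether the sum differed between the inputs depended on the scaling. That interval held 1.37, the value that the sum of all counted reads takes under TMM scaling. Mitochondrial genes took 8.71% of control and 7.02% of METTL3-KD reads, and without them the quotient of the shares was 1.21 in place of 1.23.

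The classes differed in where their control reads lay. The whole core held 1171 CPM in the control and 1161 in METTL3-KD, and the whole 19S regulator held 1015 and 1488. Within the core, the control reads were all in beta subunits apart from a single read. The constitutive beta genes held 1170 CPM in the control (438 to 2247) and 656 in METTL3-KD (504 to 827). The alpha genes held 0 molecule equivalents in the control, which allows up to 467 CPM at the floor, and 487 in METTL3-KD (361 to 640), a value above the floor with an interval that reaches below it. The exact Poisson upper limit for 0 would be 575 CPM. The lid held 708 in the control (253 to 1818) and 758 in METTL3-KD (599 to 946), and the non-ATPase subunits of the base (PSMD1, PSMD2 and PSMD4) held 307 (37.7 to 1126) and 429 (311 to 574). The ATPases held 301 in METTL3-KD (205 to 427), and the activators with PSMF1 held 229 (149 to 347). By total counts, both lay under the 467 CPM that a control count of 0 allows. The assembly factors held 326 in the control (37.7 to 1126) and 146 in METTL3-KD (81.6 to 240). By total counts the intervals of the inputs overlapped or reached into the control floor in every class. The alpha, immuno and thymus beta, ATPase and activator classes had 0 control molecule equivalents, so no pooled ratio was calculated for them. Their sums were not compared with the control floor under TMM scaling, which raises METTL3-KD relative to the control by 1.37 on the log2 scale. Under TMM scaling the pooled log2 ratio had an interval above 0 for the lid (1.47, 0.05 to 3.0), the whole 19S regulator (1.92, 0.74 to 3.16) and the whole core (1.36, 0.37 to 2.80). These intervals all held 1.37, the value that the sum of all counted reads takes under this scaling. The interval held 0 for the constitutive beta genes (0.54, -0.49 to 2.0), the non-ATPase subunits of the base (1.86, -0.11 to 4.92) and the assembly factors (0.22, -1.83 to 3.45).

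**Figure D4:**
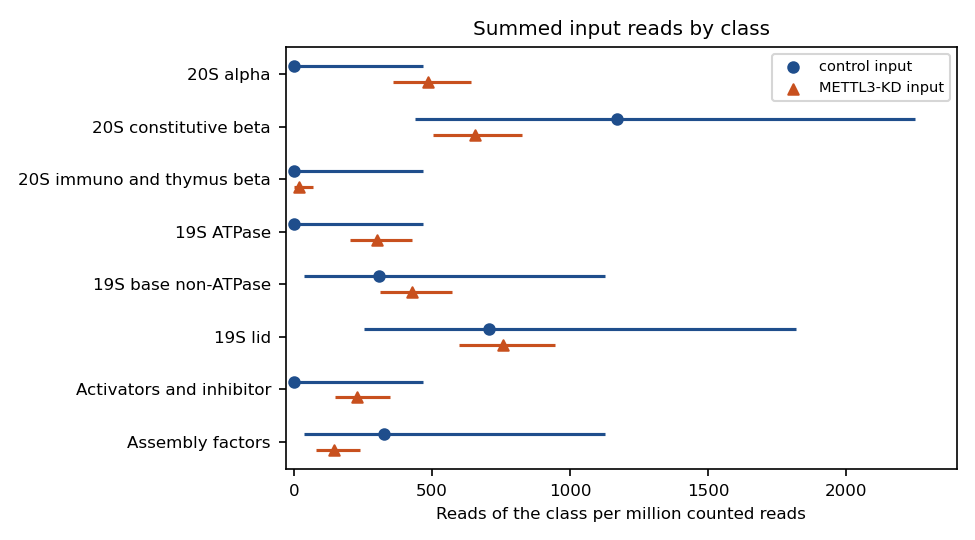
Summed CPM of each class in the control (circles) and METTL3-KD (triangles) inputs, with 95% counting intervals. For classes with 0 control molecule equivalents the line ends at the floor of 467 CPM (3 molecule equivalents) in place of an interval, and the lines of the inputs overlap in every class.

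The METTL3-KD input allowed the genes to be ordered by level per length, in RPKM on the canonical transcript. PSMB4 was first at 235 (146 to 352), followed by PSMB7 at 128 (68.3 to 219), PSMB6 at 115 (56.5 to 217), PSMA6 at 106 (52.1 to 187) and PSMB1 at 99.2 (44.9 to 186). PSMF1, whose canonical transcript of 8154 nt is the longest of the genes, was last at 3.14 (0.74 to 10.4). Neighbours in this order of 44 genes had overlapping intervals throughout. The lower bound of PSMB4 lay above the upper bounds of 37 genes, and that of PSMB7 above those of 20. By class, the median level was 107 for constitutive beta genes, 58.4 for the non-ATPase subunits of the base, 50.1 for the lid and 45.7 for the alpha genes with reads. It was 25.6 for the ATPases, 13 for the assembly factors with reads and 12 for the activators. Counted on canonical transcripts, these levels depend on the isoform, and those of PSMA4, PSMB2, PSMC1 and PSMD12 used here were 4356 to 4426 nt long.

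Several gene models overlap proteasome genes and received similar counts. PSMA2 and the same-strand model ENSG00000256646, which share 1445 nt of exon, had identical METTL3-KD lane counts of 38 and 59. The same-strand models at PSMA6, PSMA1 and PSMD9 had 316, 111 and 34 METTL3-KD reads beside 198, 158 and 44 of the genes themselves. Of 44 proteasome pseudogenes in the table, 5 had METTL3-KD reads and 0 had control reads. PSMA6P1 and PSMA6P2 carried identical counts of 22 and 18, and PSMA1P1 had 38 reads in all. Opposite-strand models also shared exons, NRDE2 with PSMC1 (4667 nt), FTSJ3 with PSMC5 (655 nt) and MLX with PSMC3IP (775 nt). They had 27, 143 and 65 METTL3-KD reads. A same-strand model that shares 109 nt with PSMB5 had 34. How reads shared by genes were assigned is not given in the sources used here. The counts of genes with such overlaps, including PSMA1, PSMA2, PSMA6, PSMB5, PSMC1, PSMC3IP, PSMC5, PSMD7 and PSMD9, are uncertain to that extent.

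m6A peaks called against the input of the same cells were then examined. At q under 0.01 the control list had 12 peaks in 10 proteasome genes, and the METTL3-KD list had 1 peak in 1 gene. Among protein-coding genes with at least 10 reads over both inputs, 18.7% had a control peak, beside 10 of 44 proteasome genes. A METTL3-KD peak was found in 6.27% of such genes, beside 1 of 44. No proteasome gene had a peak in both lists. The lists themselves differed in length, with 2298 control and 830 METTL3-KD peaks at this q.

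The control peaks lay in coding sequence (6), 3′UTRs (3) and introns (3). The strongest were carried by 3 fragments, with a fold of 4.0 over the local background. One lay in the 3′UTR of PSME3IP1, 51 nt past the last amino acid codon, and the other in an intron of PSMG4. Another 4 peaks were carried by 2 fragments, with a fold of 3.0. They lay in exon 5 of 6 of PSMB6, exon 7 of 8 of PSMB7, exon 5 of 21 of PSMD2 and exon 8 of 12 of PSMD3, all in coding sequence. The remaining 6 were carried by 1 fragment each, with a fold of 2.0.

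These single-fragment peaks were spread over the core and the 19S regulator. They lay in the 3′UTR of PSMA7, 67 nt past the last amino acid codon, and in an intron of PSMA1. In PSMD1 they lay in exon 7 of 25 and an intron. In PSMD8 they lay in exon 6 of 7 and in the 3′UTR, 183 nt past the last amino acid codon. No peak lay in an ATPase gene. Of the 10 genes with a control peak, PSMD1 and PSMD3 had at least 10 control input reads, and the other 8 had 0 reads in the control input. Among all 12 control peaks the fold followed the number of fragments alone, in PSMD1 and PSMD3 as in the genes without input reads.

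**Figure D5:**
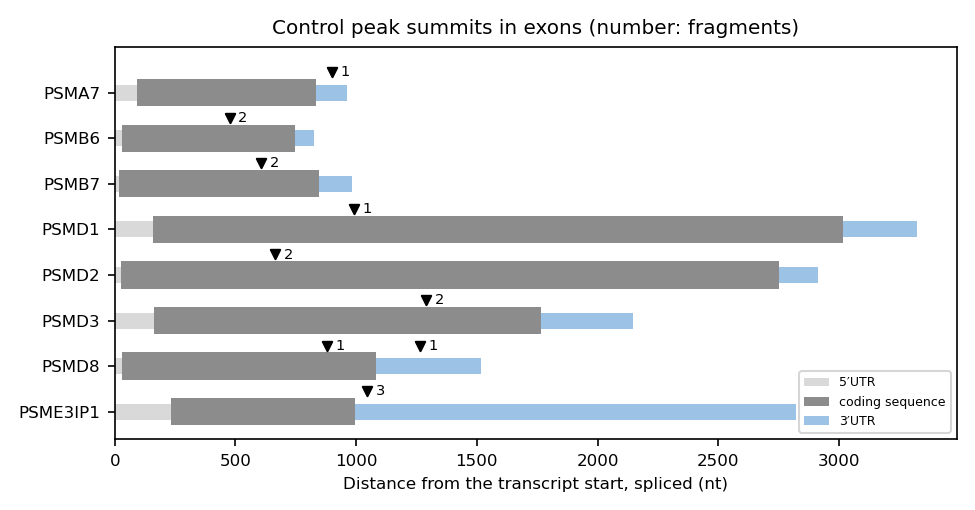
Positions of the 9 exonic control peak summits (triangles, with the number of fragments) along the spliced canonical transcripts of 8 proteasome genes, in nt from the transcript start. Bars mark the 5′UTR, the coding sequence and the 3′UTR. Of these summits 6 lie in coding sequence and 3 in 3′UTRs.

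In METTL3-KD, the peak lay in an intron of PSMF1 that overlaps an exon of TMEM74B on the other strand, with 1 fragment. A further METTL3-KD peak, in an intron of PSME4, had q above 0.01. The METTL3-KD m6A library had 4508 distinct positions and the control one 7920. The part of this difference in the number of peaks was not tested.

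The sequences printed above were read against the motif of METTL3. Within 50 nt of each summit in the genome, on the transcript strand, GGAC was present in 4 of the 9 exonic windows of proteasome genes and in 34.4% of the 1210 exonic windows of the whole control list. The longer GGACT, which contains GGAC, was present in 0 of 9 and in 7.69% of the 1210. The windows with GGAC were those of PSMB7, PSMD2, PSMD3 and PSME3IP1. Its methylatable adenosine lay 2 nt upstream of the summit in PSME3IP1, 22 nt upstream in PSMD3 and 5 nt downstream in PSMD2. In PSMB7 it lay near the edge of the window, outside the printed stretch. The windows of PSMB6, PSMD1, PSMD8 and PSMA7 did not hold these letters.

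Genes that work with the proteasome but fall outside the naming rule were listed separately. All 30 were matched and 28 had at least 10 reads over both inputs. By the same size rule 20 of the 28 were higher in METTL3-KD and 0 were lower, beside the 79.1% and 7.37% of all genes, with a median log2 ratio of 6.80, and 19 of the 20 had 0 control reads. At least 10 reads in each input were counted for 8 of them. UBB, which encodes ubiquitin, had 2602 control and 1402 METTL3-KD reads. Its log2 ratio was 1.30 (0.07 to 3.01), an interval above 0 under TMM scaling that holds 0 by total counts, which lie lower by 1.37.

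Further partner genes had reads in both inputs. UBA1, the main ubiquitin-activating enzyme, had 1068 and 592 reads and a log2 ratio of 1.34 (-0.55 to 4.52). ADRM1, the ubiquitin receptor of the base, had 778 and 107 reads and a log2 ratio of -0.67 (-3.53 to 2.29). NFE2L2, a transcription factor that induces proteasome genes under oxidative stress, had 546 and 82 reads (-0.54, -3.47 to 5.25). NGLY1, which processes the related factor NFE2L1, had 550 and 143 reads (0.25, -2.53 to 5.84). The ATPase VCP, which extracts ubiquitinated proteins from complexes and membranes, had 1035 and 221 reads (-0.03, -2.21 to 3.16). Its cofactor NPLOC4 had 262 and 146 (1.34, -2.53 to 5.84), with 0.52 molecule equivalents in the control. Each of these intervals held 0. PAAF1 had 0 reads in both inputs and AKIRIN2, an import factor of the proteasome, had 1 METTL3-KD read.

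Peaks of the partner genes were carried by 1 fragment each, apart from a METTL3-KD peak in UFD1 with 4. The control list had 8 peaks in 5 of them, including ECPAS, PAAF1, RPS27A and UBA6, and the METTL3-KD list had 3 peaks in 3 genes, of 30 listed. The shares given above, 18.7% and 6.27%, are over protein-coding genes with at least 10 reads over both inputs. PAAF1 and AKIRIN2, counted here among the genes with a peak, do not reach that limit. The UFD1 peak of METTL3-KD lay in exon 5 of 12, in coding sequence, and its 4 fragments gave a fold of 5.0. The METTL3-KD peak in PSMF1 was carried by 1. The other METTL3-KD peaks of partner genes lay in the 3′UTR of AKIRIN2 and in an intron of UBA6.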

How the data were processed

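Sample titles gave the groups. Ribosomal reads had been removed by the authors with Bowtie2, and the remaining reads were aligned to hg19 with HISAT2 and counted with featureCounts. Raw counts per gene were deposited for each input lane and were matched to GENCODE release 44 symbols by Ensembl ID. Peaks were called by the authors with MACS2 2.1.1.20160309 on pooled lanes, with fragments of 100 nt and 1 tag kept per position. Of the columns used, the pileup is a deposited signal (fragments at the summit), the fold column is the authors' ratio to local background, and the deposited −log10 column holds q values. The file headers give a q cut-off of 0.05, and q under 0.01 was used here. Fold and pileup values were compared within a list only. Peaks were assigned to genes by summit without regard to strand, and to exons of the canonical transcript. No m6A counts per gene were used, and 0 columns of unknown samples were present.

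Lanes were summed. Log2 ratios were calculated in edgeR 4.0.16 with TMM scaling and a prior count of 2, for genes with at least 10 reads over both inputs. The TMM factors were 1.61 for the control and 0.621 for METTL3-KD. With 1 library per condition no p-value between conditions was computed. A log2 ratio beyond 2 was counted, after the size threshold in the study's methods. The lower mode of reads per gene came from a density of log10 reads (bandwidth 0.03) expressed per read, and a floor of 3 molecule equivalents was set for counts of 0. The calculation was tested on simulated data. The simulation drew independent Poisson reads from a profile averaged over both inputs, so it did not model many reads per molecule equivalent. Values in full were given for genes with at least 10 reads in each input, genes with peaks, active-site beta subunits, ATPases, activators and PSMF1, and the genes with most reads. The remaining genes were given by lane counts. Genes and lists were chosen with earlier results of these data known. DESeq2 1.42.0 served for alternatives. The pooled ratio, its TMM alternative and the shares without mitochondrial genes or without a lane were chosen after seeing the data. The values of some listed partner genes are not reported here.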

Additional observations from a re-analysis of the deposited data

How the results depend on the processing

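Of 142 alternative values, 118 stayed within their limits (for counts 1.5 times the main count, for single genes the counting interval, for the median the spread between lanes), 23 moved and 1 reversed. Within these wide intervals 11 single-gene values in 5 genes (PSMB4, PSMD1, PSMD3, PSMD7 and PSMD13) changed sign, and by total counts the log2 ratio was below 0 for all 8 genes. The median log2 ratio of the proteasome genes, 6.54, became 6.75 when DESeq2 size factors were used, 5.54 by total counts and 1.19 on reads divided by the lower mode. It was 8.52 and 4.28 with prior counts of 0.5 and 10, 10.2 with lanes as replicates in DESeq2, 6.87 with at least 50 reads and -0.24 with at least 10 reads in each input, which leaves 8 genes. Without either lane it was 5.65 to 5.81. The 36 higher genes became 7 on reads divided by the lower mode and 0 with at least 10 reads in each input. The 1 lower gene became 3 with total counts, 0 on reads divided by the lower mode and 2 beyond a log2 ratio of 1. With lanes as replicates in edgeR the median was 5.71 without and 5.71 with the replicate block, with 36 genes higher and 1 lower in both. The lane deviations of the inputs correlated at -0.015 over 1871 genes, so the lane numbers do not pair the samples. The 12 control peaks became 6 at q under 0.001 and 6 at a fold above 2. The 1 METTL3-KD peak became 2 with all deposited peaks, and 0 at q under 0.001, at a fold above 2 or when exons were required. The pooled log2 ratio moved from 0.30 to 1.67 under TMM scaling. The cause of these shifts was not tested. The few molecule equivalents of the control input set the width of the single-gene intervals.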
